A study of Mus musculus with 12 samples.

Results

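The genes described here are 10 mouse genes whose transcription is known to respond to glucocorticoids: Fkbp5, Sgk1, Errfi1, Zbtb16, Cebpd, Cebpb, Klf9, Per1, Pdk4 and Angptl4. They were followed in skin after a thermal injury. A probe set, the group of short oligonucleotides that reads 1 transcript on an Affymetrix array, was taken for a gene where the array annotation named that gene and no other. This gave 13 probe sets for the 10 genes, of 7275 probe sets and 5599 singly named genes on the arrays. The genes were selected on the signals of all 12 arrays, with their changes over time known, so their values are a description and carry no test of their own.

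Total RNA from mouse skin was hybridised to 12 arrays, with 3 arrays per time: 0 hours, 2 hours, 3 days and 14 days from the injury. All groups were labelled as murine skin and differed, by their labels, only in the time of excision. The labels give no strain, sex, age, anaesthetic or drug, and leave unstated if skin of 0 hours had been burnt and if replicates were separate animals. The p-values and calls therefore weigh a difference of means only against the spread of these samples, which may be technical. They need not extend to other mice.

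Glucocorticoids are steroid hormones released by the adrenal gland under stress. They bind the glucocorticoid receptor, which is held in the cytoplasm by chaperones and, once bound, moves to the nucleus and acts on genes through short DNA elements. In skin these hormones restrain inflammation and act on keratinocytes, fibroblasts and fat cells, and the same target genes also respond to cytokines, cyclic AMP, fasting, growth factors and the circadian clock.

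The promoter windows of 3 genes are shown because each holds an element by which one of these genes is commonly described: a glucocorticoid response element, a cyclic AMP response element and a clock E-box. The sequences are the 250 bases upstream of an annotated transcript start, from RefSeq on GRCm38.p6, and capitals mark the element. Each window lies inside the annotated span of its gene, since another transcript starts further upstream.
Sgk1, chr10:21993640-21993889, plus strand: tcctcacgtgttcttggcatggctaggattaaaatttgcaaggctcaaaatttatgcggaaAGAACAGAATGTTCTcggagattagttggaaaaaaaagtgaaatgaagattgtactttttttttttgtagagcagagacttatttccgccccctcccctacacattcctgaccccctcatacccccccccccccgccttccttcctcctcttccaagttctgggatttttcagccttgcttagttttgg
Errfi1, chr4:150854820-150855069, plus strand: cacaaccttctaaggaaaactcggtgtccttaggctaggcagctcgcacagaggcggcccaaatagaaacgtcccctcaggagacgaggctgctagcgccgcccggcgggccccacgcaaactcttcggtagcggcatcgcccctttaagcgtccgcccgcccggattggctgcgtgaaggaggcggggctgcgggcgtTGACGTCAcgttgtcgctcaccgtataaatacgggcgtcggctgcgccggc
Per1, chr11:69098699-69098948, plus strand: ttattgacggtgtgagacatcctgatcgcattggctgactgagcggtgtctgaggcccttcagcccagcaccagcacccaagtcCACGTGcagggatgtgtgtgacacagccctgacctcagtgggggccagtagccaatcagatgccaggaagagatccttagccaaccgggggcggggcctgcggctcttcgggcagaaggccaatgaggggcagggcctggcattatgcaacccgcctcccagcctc

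RefSeq windows were matched for 7 of the 10 genes, 14 windows in all, and none was matched for Zbtb16, Cebpd and Angptl4. Both strands of these 14 windows, and of 32841 mouse windows of the same length, were searched for fixed letters. The full palindromic glucocorticoid element, AGAACA and its reverse complement with 3 free bases between them, was in the Sgk1 window at positions −189 to −175 from the start, and in 3 of all windows (0.00913%). Its single arm, AGAACA, was in 3 of the 14 windows, all of Sgk1, and in 16.1% of all windows. The cyclic AMP element TGACGTCA was in the Errfi1 window at −51 to −44 and in 1.55% of all windows, and its shorter form TGACG, which the full element holds on both strands, in 6 of the 14 and in 17.8%. The E-box CACGTG was in the Per1 window at −166 to −161, in the Fkbp5 window, in the same Sgk1 window as the full element, where it overlaps a further AGAACA match on the other strand, and in 6.02% of all windows. CCAAT was in 8 of the 14 windows and in 33.9% of all, and the heat shock element, GAA, TTC and GAA each 2 free bases apart, in none of the 14 and in 0.466% of all. A match says only that the letters are there.

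At 2 hours all 10 genes had a higher mean log2 signal than at 0 hours, by 0.51 to 2.33. Zbtb16, Errfi1, Pdk4, Cebpd, Fkbp5 and Sgk1, genes of transcription, growth factor feedback, fuel choice and hormone feedback, rose by 2.4-fold to 5.0-fold. Angptl4, Cebpb, Per1 and Klf9 were higher by smaller amounts that did not pass the threshold. By 3 days the 6 genes that had risen had fallen again, and by 14 days Cebpd was below its 0 hours level.

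Calls come from a limma fit across 3477 genes, each read by 1 probe set, at a Benjamini-Hochberg adjusted p under 0.05. In that fit 6 of the 10 genes were called at 2 hours, all up, where 5.67% of all genes were called, 139 up and 58 down. Groups did not overlap for 7 of the 10, these 6 and Cebpb, all up, and for 23.4% of all genes. The median log2 change was 1.44 for the 10 genes and 0.05 for all genes. Since these values entered the choice of the genes, nothing is read from that contrast. In the statements below, log2 changes are given with the standard error (SE) of that fit, n = 3 arrays per time point, and signals are in the linear units of the deposited values. Signals of different probe sets are not comparable, so genes are compared by change and not by level.

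**Figure D1:**
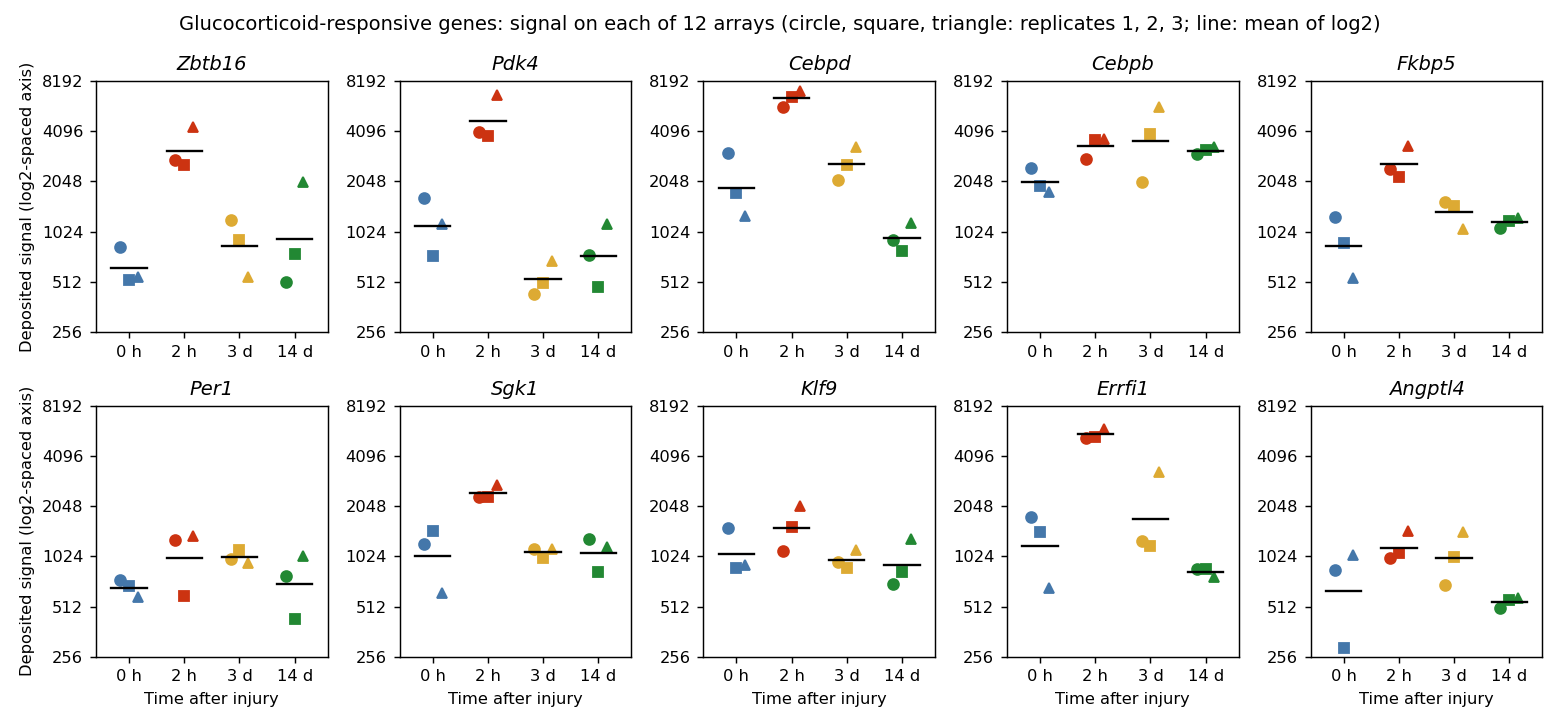
Deposited signal (log2-spaced vertical axis) of the 10 genes on each of the 12 arrays at 0 hours, 2 hours, 3 days and 14 days; circles, squares and triangles are replicates 1, 2 and 3, and the line is the mean of the log2 values. For 7 genes every 2 hours point lies above every 0 hours point, and for Per1, Klf9 and Angptl4 the points of these times overlap.

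Among the genes that feed back on hormone or growth factor signals, Fkbp5 encodes a co-chaperone that lowers the affinity of the receptor for its hormone and is induced by the receptor itself. Its signal was 1255.0, 870.5 and 539.9 at 0 hours, 2441.7, 2164.7 and 3344.8 at 2 hours, 1547.8, 1454.8 and 1065.1 at 3 days, and 1082.0, 1183.1 and 1230.1 at 14 days. Every 2 hours array lay above every other array, and the 0 hours arrays overlapped those of 3 and 14 days. Fkbp5 rose 3.11-fold at 2 hours (log2 change 1.64 ± 0.27) and fell by 0.96 ± 0.27 from 2 hours to 3 days. It was 0.67 ± 0.27 above 0 hours at 3 days and 0.47 ± 0.27 at 14 days, neither past the threshold.

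Errfi1, also called Mig6, encodes an inhibitor of the epidermal growth factor receptor. The element marked in its window above is the cyclic AMP one. The probe set used in the fit read 1773.8, 1432.4 and 660.6 at 0 hours, 5260.8, 5351.7 and 5972.9 at 2 hours, 1269.8, 1188.4 and 3271.0 at 3 days, and 854.8, 863.1 and 775.0 at 14 days. The 2 hours arrays lay within a narrow band above all others, while 1 of the 3 days arrays, replicate 3, stood well above its group. Errfi1 rose 4.64-fold at 2 hours (2.22 ± 0.37) and fell by 1.70 ± 0.37 from 2 hours to 3 days. The log2 change of 0.52 ± 0.37 at 3 days against 0 hours became 0.05 without 3 days replicate 3.

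A second Errfi1 probe set read 438.8, 548.2 and 365.3 at 0 hours, 1718.9, 2140.3 and 1135.6 at 2 hours, 668.7, 771.9 and 1755.4 at 3 days, and 497.0, 477.3 and 647.2 at 14 days. It also had every 2 hours array above every 0 hours array, with the same 3 days array apart from its group. In a fit of all kept probe sets its log2 changes from 0 hours, each with an SE of 0.33, were 1.86 at 2 hours, 1.12 at 3 days and 0.27 at 14 days. At 14 days the probe sets had opposite signs, and the one used gave −0.52 ± 0.37.

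Sgk1 encodes a serine-threonine kinase, induced by glucocorticoids and mineralocorticoids, that promotes sodium uptake and cell survival. Its signal was 1220.5, 1444.5 and 620.3 at 0 hours, 2335.3, 2327.3 and 2722.7 at 2 hours, 1140.3, 1003.6 and 1136.6 at 3 days, and 1295.0, 829.6 and 1171.2 at 14 days. The 2 hours arrays were tightly grouped above all others, and the remaining time points overlapped. Sgk1 rose 2.38-fold at 2 hours (1.25 ± 0.27), and its changes at 3 and 14 days against 0 hours were 0.08 ± 0.27 and 0.07 ± 0.27. The 2 hours call was lost without 2 hours replicate 3, with a log2 change of 1.18.

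Of the transcription factors, Zbtb16 encodes a zinc-finger repressor, also known as PLZF, that glucocorticoids induce. Its signal was 829.8, 523.2 and 551.8 at 0 hours, 2753.3, 2555.5 and 4372.1 at 2 hours, 1196.1, 912.3 and 545.3 at 3 days, and 513.1, 752.7 and 2042.7 at 14 days. The 2 hours arrays were again above all others, and at 14 days replicate 3 was far above the other two. Zbtb16 rose 5.05-fold at 2 hours (2.33 ± 0.42), the largest change of the 10 genes, and fell by 1.90 ± 0.42 from 2 hours to 3 days. The change of 0.57 ± 0.42 at 14 days against 0 hours was 0.00 without 14 days replicate 3.

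Cebpd encodes C/EBP-delta, an early regulator of acute phase and fat cell genes. Its signal was 3019.8, 1748.1 and 1264.0 at 0 hours, 5728.4, 6616.5 and 7140.2 at 2 hours, 2103.8, 2568.4 and 3290.5 at 3 days, and 917.8, 783.6 and 1161.5 at 14 days. The order of the time points was 2 hours, 3 days, 0 hours and 14 days, with no overlap between 2 hours and any other time, nor between 14 days and 0 hours, and with overlap between 3 days and 0 hours. Cebpd rose 3.44-fold at 2 hours (1.78 ± 0.28), fell by 1.31 ± 0.28 from 2 hours to 3 days, and at 14 days was 2.00-fold below 0 hours (SE 0.28 on the log2 scale).

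Cebpb encodes C/EBP-beta, a relative of C/EBP-delta that acts in inflammation and keratinocyte differentiation. Its signal was 2467.8, 1913.2 and 1760.7 at 0 hours, 2810.7, 3613.2 and 3660.0 at 2 hours, 2032.6, 3960.1 and 5705.0 at 3 days, and 2972.1, 3148.3 and 3299.4 at 14 days. Both the 2 hours and the 14 days arrays lay wholly above the 0 hours arrays, and the 3 days arrays were the most spread. Its log2 changes against 0 hours were alike at the 3 times, 0.72 ± 0.29 at 2 hours, 0.82 ± 0.29 at 3 days and 0.63 ± 0.29 at 14 days, and none was called. The 3 days change was 1.23, and called, without 3 days replicate 1, and 0.49 without 3 days replicate 3.

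Klf9 encodes a Krüppel-like factor that slows keratinocyte division and is a direct target of the receptor in many tissues. The probe set used read 1523.0, 870.6 and 907.5 at 0 hours, 1104.4, 1544.1 and 2052.4 at 2 hours, 942.5, 872.6 and 1124.3 at 3 days, and 697.1, 829.3 and 1292.8 at 14 days. All 4 time points overlapped, with the highest value on 2 hours replicate 3. The log2 change at 2 hours was 0.51 ± 0.29, the smallest of the 10 genes, and those at 3 and 14 days were −0.13 ± 0.29 and −0.23 ± 0.29. A dimmer Klf9 probe set, which did not pass the filter on low signal, read 299.1, 397.8 and 137.0 at 0 hours and 453.3, 554.0 and 378.5 at 2 hours, a difference of the mean log2 values of 0.61.

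Per1 encodes a repressor of the circadian clock that glucocorticoids also induce directly. Its signal was 736.3, 680.0 and 583.7 at 0 hours, 1276.5, 588.7 and 1355.6 at 2 hours, 985.9, 1125.4 and 938.4 at 3 days, and 779.6, 432.8 and 1029.2 at 14 days. At 2 hours 2 arrays were high and replicate 2 was at the 0 hours level, whereas all 3 days arrays were above all 0 hours arrays. The log2 change was 0.60 ± 0.33 at 2 hours, 0.61 ± 0.33 at 3 days and 0.08 ± 0.33 at 14 days, none called. It was 0.99 at 2 hours without 2 hours replicate 2 and 0.39 without 2 hours replicate 3. The hour of day at which skin was taken is not in the labels.

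Of the genes of fuel use, Pdk4 encodes a kinase that switches off pyruvate dehydrogenase and spares glucose during fasting. Its signal was 1623.1, 735.3 and 1139.7 at 0 hours, 4063.8, 3861.8 and 6753.8 at 2 hours, 431.2, 505.5 and 687.5 at 3 days, and 741.0, 476.1 and 1134.6 at 14 days. The 2 hours arrays were far above all others, and the 3 days arrays lay below all 0 hours arrays. Pdk4 rose 4.27-fold at 2 hours (2.09 ± 0.34) and fell 8.91-fold from 2 hours to 3 days (log2 change −3.16 ± 0.34), the widest swing of the 10 genes. Its change of −1.06 ± 0.34 at 3 days against 0 hours was not called, but was called, at −1.36, without 0 hours replicate 2, and, at −1.06, without 14 days replicate 2 or 3. It was also called under quantile normalization, the floor at the 40th percentile, the filter at the 75th percentile, trended variance and the replicate block.

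Angptl4 encodes a secreted inhibitor of lipoprotein lipase that fasting, glucocorticoids and low oxygen induce. The probe set used read 853.9, 289.4 and 1049.0 at 0 hours, 1001.4, 1069.5 and 1443.6 at 2 hours, 688.4, 1012.8 and 1434.2 at 3 days, and 501.7, 560.8 and 575.6 at 14 days. The arrays of 0 hours and 2 hours overlapped, and 0 hours replicate 2 was the lowest of all 12. The log2 change of 0.86 ± 0.38 at 2 hours was not called, and it was 0.29 without 0 hours replicate 2 and 1.22 without 0 hours replicate 3. A second probe set read 652.1, 429.9 and 426.6 at 0 hours and 664.3, 870.9 and 739.3 at 2 hours, with no overlap and a change of 0.61 ± 0.27. At 3 days the second set gave 0.03 ± 0.27 against 0.65 ± 0.39 for the first in the fit of all kept probe sets.

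**Figure D2:**
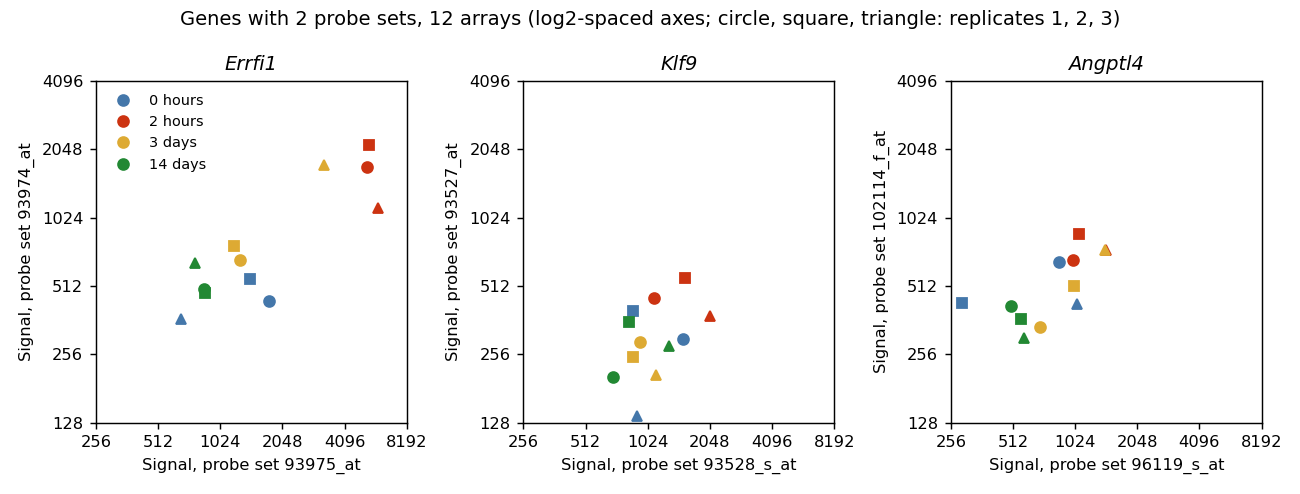
Signal of the 2 probe sets of Errfi1, Klf9 and Angptl4 on the 12 arrays (both axes log2-spaced, 1 point per array, colours for time points, shapes for replicates). The red 2 hours points of Errfi1 lie high on both axes with 3 days replicate 3 near them, and in the Angptl4 panel 2 hours replicate 3 lies almost under 3 days replicate 3.

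All 10 genes passed the filter on low signal, and none passed it through the 2 hours arrays alone. The probe sets of Zbtb16, Klf9 and Angptl4 carry suffixes that Affymetrix gave to sets able to match related sequences, so their signal may not come from the named gene alone. The same holds for Anxa1, Cry1 and Atf3, which are described further on.

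**Figure D3:**
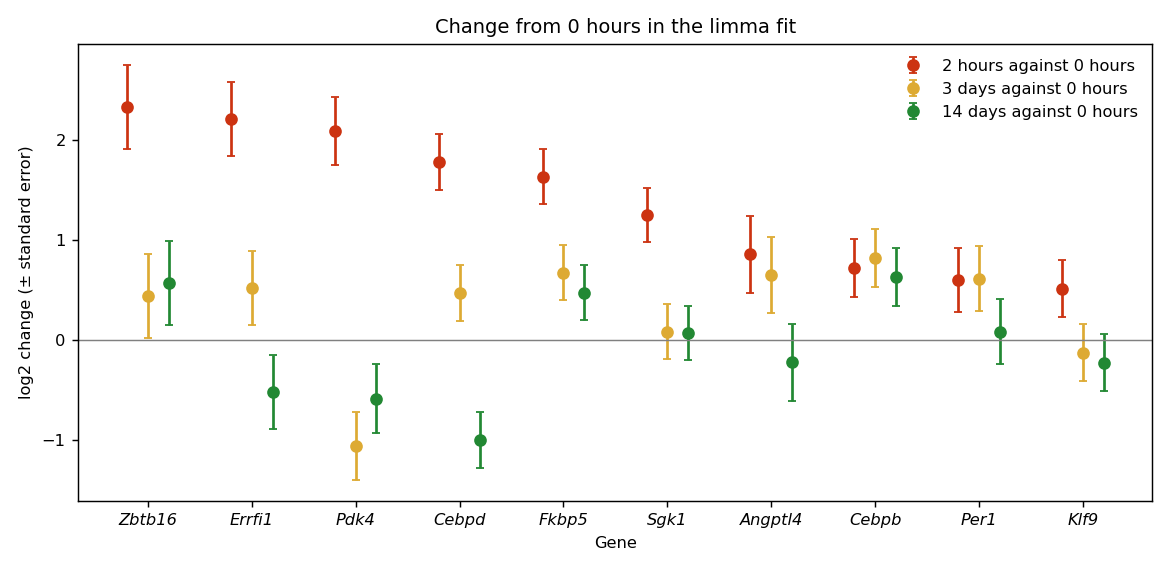
Log2 change of the 10 genes from 0 hours to 2 hours, 3 days or 14 days in the limma fit; bars are ± SE with 3 arrays per time point. The red 2 hours points run from 2.33 for Zbtb16 to 0.51 for Klf9, and the later points lie between −1.06 and 0.82.

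By the probe sets used in the fit, most of the 10 genes were at their highest of that time together on some arrays. On 2 hours replicate 3 all 10 genes were at their highest of that time, where 33.2% of all tested genes had their highest 2 hours value. The second probe sets did not share this: those of Errfi1 (1135.6) and Klf9 (378.5) were lowest of 2 hours on that array. That of Angptl4 (739.3) lay between the other 2 hours arrays. On 0 hours replicate 1 Zbtb16, Pdk4, Cebpd, Cebpb, Fkbp5, Per1, Klf9 and Errfi1 were at their highest, 8 of 10, against 30.9% of all genes, and on 14 days replicate 3 also 8 of 10, against 37.4%. On 3 days replicate 3 Pdk4, Cebpd, Cebpb, Klf9, Errfi1 and Angptl4 were highest and Zbtb16, Fkbp5 and Per1 lowest. On that array 32.6% of all genes were highest and 38.2% lowest. These counts are over genes of the same arrays and are not independent.

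**Figure D4:**
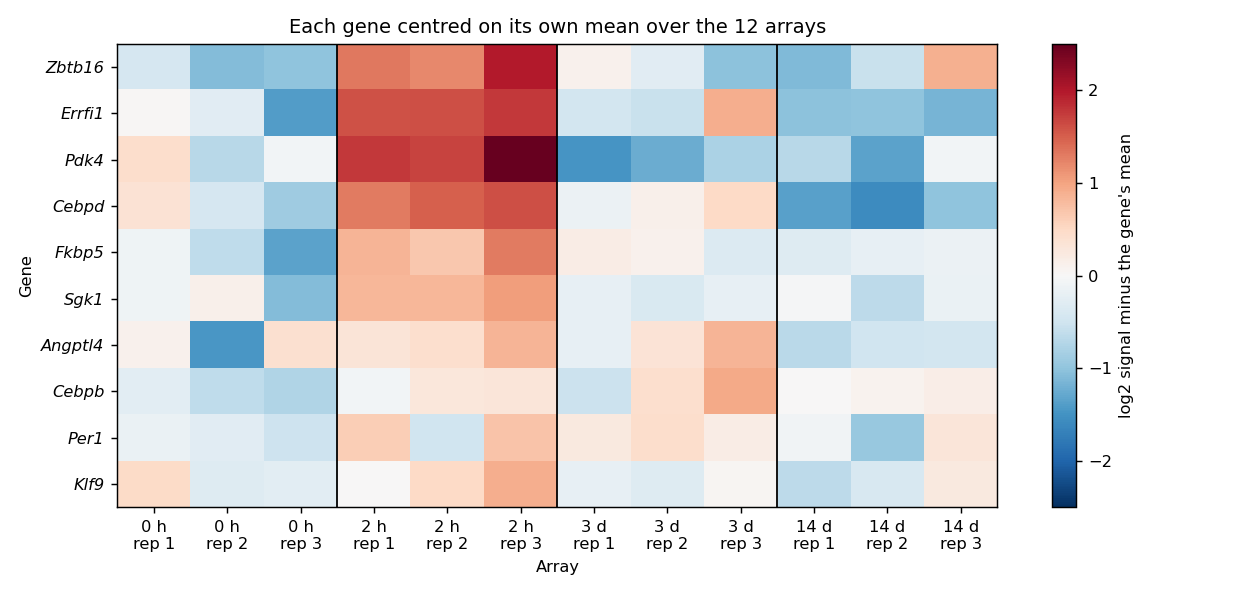
Log2 signal of each of the 10 genes minus its own mean over the 12 arrays; rows are genes, columns are arrays, red is above and blue below the gene's mean. The 2 hours columns are the reddest for the upper 6 genes, with replicate 3 the darkest, and single arrays such as 14 days replicate 3 for Zbtb16 and 3 days replicate 3 for Errfi1 stand out.

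Other measures moved with time on the same arrays. The log2 ratio of the 3′ to the 5′ Gapdh control probe sets is a measure that rises as RNA integrity falls. This ratio ran from 1.71 to 2.28 in the 0 hours arrays and 1.05 to 1.97 in those of 2 hours. In the later arrays it ran from 0.05 to 1.05 at 3 days and 0.16 to 0.30 at 14 days. Averaged over 25 markers of skeletal muscle, the log2 signal ran from 13.01 to 13.85, 12.67 to 12.88, 11.63 to 12.67 and 12.12 to 12.60 at these times. Within 2 hours, replicate 3, on which the probe sets used for the 10 genes were highest, had the highest Gapdh ratio, 1.97, and the lowest muscle mean, 12.67. Within 0 hours, replicate 1 had the lowest Gapdh ratio, 1.71, and the highest muscle mean, 13.85. The part of both measures in the results was not tested beyond the covariate fits given with each comparison. Neither measure overlapped between 0 hours and 3 or 14 days, and the muscle mean also did not between 0 hours and 2 hours. Between 2 hours and 3 days both measures lay narrowly apart. The lowest 2 hours and highest 3 days values were 1.054 and 1.047 for the Gapdh ratio, and 12.6727 and 12.6724 for the muscle mean. In those comparisons the covariate and time cannot be told apart.

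Summed signals of cell type markers bear on which cells the tissue held. Keratinocyte markers, 12 of 16 with a probe set, summed to 68321 to 89328 at 0 hours and 83252 to 86006 at 2 hours, and all had signal above the floor on at least 1 array. The sums of fibroblast markers, 12 of 13, were 135373 to 152891 and 84545 to 93240 at these times. A sum is weighted to the brightest probe sets. Gene by gene, 4 of the 12 fibroblast markers tested were called lower at 2 hours and 8 were not called. Their median log2 change was 0.02, with 7 above 0. The sums of adipocyte markers, 16 of 20, were 60249 to 137674 at 0 hours and 80139 to 113155 at 2 hours. Those of macrophage markers, 17 of 18, were 16333 to 19504 and 12874 to 25535. Those of muscle markers, 31 of 34, were 381196 to 634665 and 337438 to 384933. At 3 days the macrophage sum was 46645 to 71399 and the muscle sum 132812 to 292947, and at 14 days the keratinocyte sum was 109013 to 141102 and the adipocyte sum 34395 to 52540. Aqp7, a glycerol channel of fat cells, was at the floor on all 12 arrays. The adipocyte markers Pparg and Cd36 were there on all arrays of 3 and 14 days. Among muscle markers this held for Myl3, of slow muscle, at 2 hours and later, Myl2 at 2 hours and 3 days, and Myh7 and Tnnc1 at 2 hours. It also held for the keratinocyte marker Dsc3 before 14 days. Of the macrophage markers it held for Fcgr3 at 2 hours and later, and Itgam at 0 hours, 2 hours and 14 days. In such bulk samples fewer cells of a type and less RNA per cell cannot be told apart, and the part of these cell types in the changes of the 10 genes was not tested.

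Leaving out the filter on low signal raised the number of genes tested and added dim genes to the estimate of spread that all genes share. Without that filter the 2 hours calls of Zbtb16 and Sgk1 were lost. Sgk1 was also lost with the Gapdh ratio as a covariate (log2 change 1.18) and with only the 2 time points compared. With the muscle mean as a covariate all 6 calls held. No alternative, of 24 for each gene, turned the direction of any of the 10 genes at 2 hours.

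The receptor itself could not be followed. The Nr3c1 probe set read 10.3 to 102.5 on the 12 arrays, below the floor of 225.375 throughout, and was not tested. Probe sets singly named for the mineralocorticoid receptor Nr3c2, the inactivating enzyme Hsd11b2 and the classic target Tsc22d3 were not in the annotation used. Hsd11b1, whose enzyme regenerates active hormone inside cells, read 779.7, 312.6 and 114.0 at 0 hours, 365.2, 486.5 and 483.7 at 2 hours, and did not exceed the floor on any 14 days array. Its log2 change at 2 hours was 0.22 ± 0.34 and was not called, and it ran from −0.16 without 0 hours replicate 3 to 0.73 without 0 hours replicate 1.

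Of 27 listed genes for the receptor's chaperones and cofactors, 13 were tested, 3 rose at 2 hours and none fell, with a median log2 change of 0.27 against 0.05 for all genes. Hsp90aa1, the stress-inducible Hsp90 that holds the receptor ready for hormone, read 1605.5, 1786.3 and 1118.5 at 0 hours and 10606.5, 15713.7 and 8083.6 at 2 hours. It rose by 2.90 ± 0.29 (limma adjusted p = 4.3e-05), the chaperone Hspa8 by 1.18 ± 0.20 (0.0029) and its helper Dnaja1 by 1.38 ± 0.28 (0.011). These are also heat shock proteins. No call of these 3 was lost without 1 array, and that of Dnaja1 was lost with no filter (0.054) and with only the 2 time points compared (0.094). The co-chaperones Fkbp4 and Ppid, relatives of Fkbp5 in the receptor complex, had changes of 0.27 ± 0.18 and 0.54 ± 0.19 and were not called.

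Of 40 listed other genes known to be induced by glucocorticoids, 30 had a probe set and 23 were tested, of which 5 rose at 2 hours, none fell and 18 were not called, with a median of 0.45. The metallothioneins Mt1 and Mt2, which glucocorticoids, metals and oxidative stress induce, rose by 3.13 ± 0.23 (limma adjusted p = 1.9e-06) and 2.35 ± 0.20 (9.3e-06). Mt1 read 3529.1, 2961.8 and 2575.3 at 0 hours and 20559.8, 29515.3 and 29589.4 at 2 hours. Ccn2, a matricellular growth regulator, rose by 1.74 ± 0.37 (0.014), and the anti-inflammatory annexin Anxa1 by 0.80 ± 0.20 (0.036). Rhob, a small GTPase named after its values were seen, rose by 1.02 ± 0.27 (0.039).

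The calls of Mt1 and Mt2 held without any 1 array, and the others did not. Ccn2 was lost without 0 hours replicate 3, 2 hours replicate 1 or 2 hours replicate 3, with limma adjusted p of up to 0.073. Anxa1 was lost without 0 hours replicate 1 or 3, 2 hours replicate 1 or 3, or 3 days replicate 2, with p of up to 0.16. Rhob was lost without 0 hours replicate 2 or 3, any 2 hours array, 3 days replicate 2 or 14 days replicate 2, with p of up to 0.13. Among genes of the list that were not called, the phosphatase Dusp1 read 4536.7, 2469.6 and 3782.5 at 0 hours and 4124.1, 5343.1 and 4417.2 at 2 hours, a change of 0.40 ± 0.33. Nfkbia, the inhibitor of NF-kappa-B, changed by 0.67 ± 0.24 (limma adjusted p = 0.12), and its other probe set by 0.68 ± 0.24. Both are textbook targets of the receptor.

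**Figure D5:**
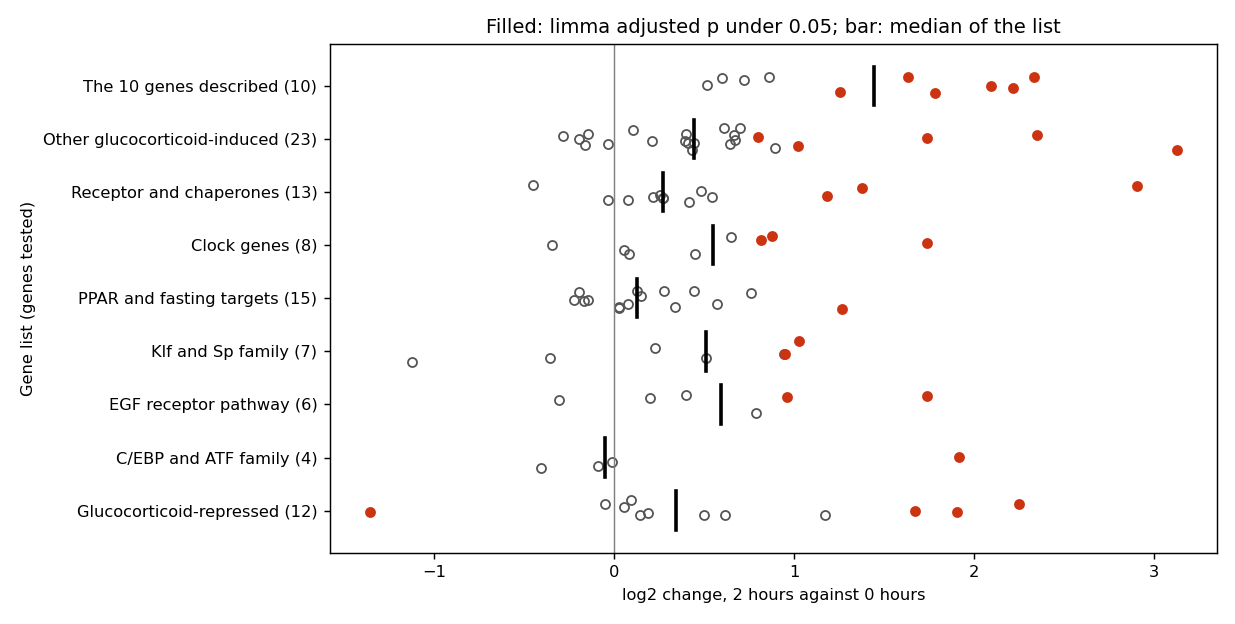
Log2 change at 2 hours against 0 hours of the 10 genes and of the tested genes of 8 lists; filled points passed a limma adjusted p of 0.05, the bar is the median of each list, and vertical spread within a row is only for legibility. The median of the 10 genes is at 1.44, and those of the lists lie between −0.05 for the C/EBP and ATF family and 0.59 for the epidermal growth factor receptor pathway. The 10 genes were chosen with these changes known, so nothing is read from the distance between their median and those of the lists.

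In the clock list 8 of 19 genes were tested beside Per1, 3 rose at 2 hours, none fell, and the median was 0.55. Dbp, an output gene of the clock, read 207.6, 281.4 and 110.9 at 0 hours and 872.3, 1377.1 and 443.1 at 2 hours, with 2 of the 0 hours arrays at the floor. Its rise of 1.74 ± 0.43 (limma adjusted p = 0.032) depends on that floor, and was 1.17, and not called (0.116), with the floor at the 40th percentile. Dbp was also called higher at 3 days, by 1.71 ± 0.43, and at 14 days, by 1.65 ± 0.43. The 3 days call was lost without 0 hours replicate 1 or 3 days replicate 1 or 2 and the 14 days call without 0 hours replicate 1 or 3 or any 14 days array, with p of up to 0.058 and 0.078. Both calls were lost with the 40th percentile floor (log2 changes 1.14 and 1.08) and with either covariate, where the changes themselves were larger: at 3 days 2.58 (Gapdh ratio) and 2.85 (muscle mean), and 2.71 and 2.61 at 14 days. The repressor Cry1 rose by 0.88 ± 0.21 (0.028) and Tef, a relative of Dbp, by 0.82 ± 0.21 (0.033). Nr1d1, a repressor of the clock, changed by −0.34 ± 0.29 and was not called, but without 0 hours replicate 2 it was called lower, at −0.78 (limma adjusted p = 0.027). Per2, the paralogue of Per1, read 4.2, 66.4 and 31.7 at 0 hours and 299.6, 235.3 and 282.8 at 2 hours, and was too dim to be tested. Without 0 hours replicate 1 none of the 3 genes was called, and each was lost without at least 3 more arrays, among them 0 hours replicate 3 and 2 hours replicate 1, with p of up to 0.11, 0.13 and 0.096 for Cry1, Dbp and Tef.

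Relatives of Cebpd, Cebpb and Klf9 were not uniformly higher at 2 hours. Of 12 C/EBP and ATF genes 4 were tested and 1, the stress factor Atf3, rose, by 1.92 ± 0.32 (limma adjusted p = 0.0028), with a median of −0.05. Cebpa, which encodes C/EBP-alpha, changed by −0.01 ± 0.23. Of 16 Krüppel-like and Sp factors 7 were tested, and Klf10 (0.95 ± 0.21, limma adjusted p = 0.017) and Klf6 (1.03 ± 0.25, 0.027) rose, with a median of 0.51. Klf10 was lost without 0 hours replicate 1 or 2 hours replicate 3, with p of up to 0.092, and Klf6 without 0 hours replicate 3 or any 2 hours array, with p of up to 0.094.

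Of 30 genes of fasting and fat oxidation 15 were tested beside Pdk4 and Angptl4, and 1 rose at 2 hours, with a median of 0.13. Ucp3, a mitochondrial carrier of muscle and brown fat, read 475.0, 252.1 and 319.4 at 0 hours and 728.8, 782.5 and 931.1 at 2 hours. It rose by 1.27 ± 0.26 (limma adjusted p = 0.011), and was lost without 2 hours replicate 3 (0.066). The kinases Pdk1 and Pdk3, paralogues of Pdk4, changed by −0.22 ± 0.28 and 0.03 ± 0.22.

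In the list for feedback on the epidermal growth factor receptor, where Errfi1 acts, 6 of 23 genes were tested and 2 rose, with a median of 0.59. They were the phosphatase Dusp6 (0.96 ± 0.24, limma adjusted p = 0.029) and the cytokine signal inhibitor Socs3 (1.74 ± 0.47, 0.042). Dusp6 was lost without 0 hours replicate 2 or 3 or 2 hours replicate 1 or 2, with p of up to 0.11. Socs3 was lost without any 1 of 9 arrays, all but 0 hours replicate 1 and 3 days replicates 1 and 3, with p of up to 0.16. Of 9 tested genes of the Sgk and Akt pathway none was called at 2 hours by limma, and their median was 0.25.

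Genes that glucocorticoids are known to repress were in part higher at 2 hours. Of 27 listed, 12 were tested, 3 rose and 1 fell, with a median of 0.34. The monocyte attractants Ccl2 and Ccl7 rose by 2.25 ± 0.60 (limma adjusted p = 0.042) and 1.91 ± 0.42 (0.018), with 1 and 2 of the 0 hours arrays at the floor, and the wound keratin Krt6a by 1.67 ± 0.36 (0.016). The collagenase-activating protease Mmp3 fell by 1.35 ± 0.29 (0.014). Ccl2 was lost without any 1 of 10 arrays, all but 3 days replicates 1 and 3, with p of up to 0.14. Ccl7 and Krt6a were lost without 0 hours replicate 1 or 2 hours replicate 1 or 3, with p of up to 0.070 and 0.066, and Krt6a also with its most variable probe set (1.31). Mmp3 was lost without 0 hours replicate 3 or 2 hours replicate 1 or 2, with p of up to 0.062.

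The covariates moved the 2 hours values of some of these listed genes. With either the Gapdh ratio or the muscle mean the calls of Ccn2, Anxa1, Rhob, Dusp6, Klf6, Socs3, Ccl2 and Ccl7 were lost, that of Tef with the Gapdh ratio alone, and under the muscle mean alone those of Dnaja1 (1.14, limma adjusted p = 0.065), Klf10 and Krt6a. The change of Ccl2 went from 2.25 to 1.45 (0.154) and 1.46 (0.201) on the log2 scale, and that of Ccl7 from 1.91 to 1.56 (0.081) and 1.23 (0.10). Not every lost call came with a smaller change. With the Gapdh ratio the changes were 0.87 for Anxa1 and 0.88 for Tef, but 0.88 for Klf6 and 0.76 for Dusp6. With the muscle mean they were 1.04 for Klf6 and 0.98 for Dusp6, but 0.71 for Anxa1.

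At 3 days against 0 hours 0 of the 10 genes were called, where 13.3% of all genes were called, 309 up and 153 down. Their median log2 change was 0.50, from −1.06 for Pdk4 to 0.82 for Cebpb, with 8 above 0. By the probe sets used in the fit, Per1 was the 1 gene whose 3 days arrays all lay above the 0 hours arrays. Pdk4 was the 1 gene whose arrays all lay below, while 28.6% of all genes did not overlap, 576 up and 418 down. The 3 days arrays of the second Errfi1 probe set also all lay above its 0 hours arrays, with a change of 1.12 ± 0.33. Of the 23 other glucocorticoid-induced genes 4 rose and 1 fell, with a median of 0.11. Mt1 (1.55 ± 0.23), Mt2 (0.98 ± 0.20), the lipid droplet protein Plin2 (1.14 ± 0.22) and the glucose transporter Slc2a1 (1.45 ± 0.23) rose, and Txnip fell by 0.77 ± 0.24. Plin2, Slc2a1 and Txnip were named after their values were seen, and Txnip was lost without any 1 of 9 arrays, with a limma adjusted p of up to 0.18. Of the 12 glucocorticoid-repressed genes 9 rose and none fell, with a median of 2.04. In the same comparison 14 of 14 tested macrophage markers rose, with a median of 1.77, and 15 of 25 muscle markers fell, and their part in the rise of this list was not tested. Adding the Gapdh ratio as a covariate left 4 genes called in all and adding the muscle mean left 5. Neither measure overlapped between 0 hours and 3 days, so its part in the calls and in the signs cannot be told apart from that of time. It was not tested further. Leaving out 1 array called Pdk4 in 3 cases, as given above, Fkbp5 without 0 hours replicate 1 (log2 change 0.97) and Cebpb without 3 days replicate 1. The Gapdh ratio as a covariate turned the direction of Errfi1, from 0.52 to −0.80, of Cebpd, from 0.47 to −0.18, and of Cebpb, from 0.82 to −0.11.

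The comparison of 3 days with 2 hours is given as a description only. Of the 10 genes 6 were called, all down, where 9.40% of all genes were called, 212 up and 115 down. They were the genes that had risen, Zbtb16, Errfi1, Pdk4, Cebpd, Fkbp5 and Sgk1. By the probe set used for each, all 3 days arrays lay below all 2 hours arrays, while 35.2% of all genes did not overlap, 580 up and 643 down. The second Errfi1 probe set changed by −0.74 ± 0.33 in the fit of all kept probe sets. Its 3 days replicate 3 (1755.4) lay above its 2 hours replicates 1 (1718.9) and 3 (1135.6). This comparison and that of 2 hours with 0 hours share the 2 hours arrays, so a high 2 hours value moves both. The genes were also chosen with their 2 hours values known, which favours lower values at another time. Nothing is therefore read from the count or the median of the 10 genes here. Klf9 changed by −0.64 ± 0.29, Angptl4 by −0.21 ± 0.38, Cebpb by 0.10 ± 0.29 and Per1 by 0.01 ± 0.33, none called. The median of the 10 genes was −1.06 and that of all genes −0.03. In the other glucocorticoid-induced genes 2 rose and 5 fell, with a median of −0.42.

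Pdk4 kept its call without any 1 array. Without 2 hours replicate 3 it was the only gene of the 10 called, without 3 days replicate 2 the calls of Fkbp5, Sgk1 and Errfi1 were lost, and without 3 days replicate 3 those of Zbtb16, Fkbp5 and Sgk1. Fkbp5 was also lost without either other 2 hours array or any 14 days array. Pdk4 and Errfi1 kept their calls with the Gapdh ratio or with the muscle mean as a covariate, and the other 4 lost them with each. Log2 changes under the Gapdh ratio and the muscle mean were −1.13 and −1.35 for Zbtb16 and −1.76 and −1.23 for Cebpd. They were −1.32 and −1.13 for Sgk1, and −0.87 and −0.58 for Fkbp5. Neither covariate overlapped between 2 hours and 3 days, so these fits cannot tell it from time. Nothing is read from the calls kept or lost.

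At 14 days against 0 hours 1 of the 10 genes was called, Cebpd, down, where 10.2% of all genes were called, 240 up and 113 down. The median of the 10 genes was −0.08, with 5 above and 5 below 0. By the probe sets used in the fit, Cebpb was the 1 gene with all 14 days arrays above the 0 hours arrays. Cebpd was the 1 gene with all below, while 29.1% of all genes did not overlap, 606 up and 407 down. The 14 days arrays of the second Angptl4 probe set also all lay below its 0 hours arrays, with a change of −0.46 ± 0.27. The Cebpd call was lost without 0 hours replicate 1, where its change was −0.66, without 3 days replicate 2, which left the change itself as it was, and without 14 days replicate 1 (−0.98) or 2 (−0.87). It was also lost with the Gapdh ratio (−1.79) or the muscle mean (−0.86) as a covariate, and the Gapdh ratio turned Cebpb from 0.63 to −0.50. Of the 23 other glucocorticoid-induced genes 1 rose, Slc2a1 (0.86 ± 0.23), and 2 fell, Dusp1 by 1.22 ± 0.33 and the decoy receptor Il1r2 by 1.22 ± 0.20, with a median of 0.02. Dusp1 and Slc2a1 were each lost without 0 hours replicate 1 or 3 or 14 days replicate 1 or 2, with limma adjusted p of up to 0.13 and 0.14.

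The genes most like the 10 over the 12 arrays were found by the root mean square difference between a gene's log2 signal, centred on its own mean, and the median of the centred values of the 10 genes. Sowahc, an ankyrin repeat gene, differed by 0.26, Emp1, an epithelial membrane protein, by 0.26, Cav1, which encodes caveolin-1, by 0.28, Cd1d1, a lipid-presenting molecule, by 0.29 and S100a10, an annexin partner, by 0.30. The median over all tested genes was 0.68. Of the 10 genes themselves Fkbp5 (0.29) and Sgk1 (0.31) were closest to their common profile and Pdk4 (0.85) furthest from it.

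Sowahc read 642.0, 581.2 and 706.0 at 0 hours, 1648.0, 1250.8 and 1556.9 at 2 hours, 811.1, 880.7 and 727.0 at 3 days, and 555.4, 507.5 and 642.2 at 14 days. Emp1 read 5553.4, 7519.0 and 4736.9 at 0 hours and 12392.6, 11425.1 and 16251.2 at 2 hours. Like the probe sets used for the 10 genes, it was highest among the 2 hours arrays on replicate 3. These genes were picked for their likeness over all arrays, so their changes carry no test here.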

How the data were processed

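Signals of 12 mouse skin arrays were taken from the deposited value table, whose intensity values are linear. How the authors scaled them, and with which software, is not given in the sources used. Array medians ran from 448.4 to 496.4, and no further scaling was applied. The number of arrays limits the precision. Probe sets were named from the platform annotation: of 7275, 6551 had 1 gene symbol, 251 several and 446 none, and 27 were controls. Values were floored at 225.375 (the pooled 25th percentile) and put on the log2 scale. A probe set entered the analysis where at least 3 arrays exceeded 475.55, the median of all values, and the one with the highest mean log2 signal per gene was used, giving 3477 genes. limma 3.58.1 in R 4.3.3 fitted all 12 arrays with 1 coefficient per time point, and calls were Benjamini-Hochberg adjusted p under 0.05. The procedure was tested on simulated data. With 3 arrays against 3, an exact permutation test cannot go below p = 0.1, so none was used.

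The 10 genes, the gene lists and the tests were chosen with earlier results of these data known. All 10 genes were named, with a fixed set of receptor, target and clock genes, up to 4 genes per list called at 2 hours with the smallest p, and the 5 genes most like the 10. No pairing by replicate number was found: deviations from the group means correlated above 0.1 in 2 of 18 pairs of arrays with the same number (median −0.0656). Alternatives were other scaling, floors, filters, probe sets and variance models, a replicate block, the Gapdh ratio or muscle mean as a covariate, only the compared time points, and each array left out.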

Additional observations from a re-analysis of the deposited data

How the results depend on the processing

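The signs of all 10 genes at 2 hours held under the 24 alternatives. Over 4 comparisons 960 alternative values of the 10 genes were computed: 905 kept their side of the threshold, 45 lost a call, 10 gained one and none was a call with its sign turned. Signs did turn among values that were not called: with the Gapdh ratio for Cebpb, Cebpd, Errfi1, Sgk1 and Klf9 at 3 days, and in at least 1 alternative for 13 of the 40 values of a gene in a comparison. All genes called at 2 hours, 197, became 108 with the Gapdh ratio as a covariate, 63 with only the 2 time points compared, and 72 to 316 with 1 array left out. At 3 days, 462 became 294 with no filter, 4 with the Gapdh ratio, 5 with the muscle mean, 216 with only the 2 time points, and 178 to 558 with 1 array left out. At 14 days, 353 became 2 with the Gapdh ratio, 15 with the muscle mean, 153 with only the 2 time points, and 119 to 486. Between 3 days and 2 hours, 327 became 174 with no filter, 16 with the Gapdh ratio, 107 with the muscle mean, and 112 to 409. Of the 10 genes, the 6 called at 2 hours became 5 to 6 with 1 array left out. The 0 at 3 days became 1, Pdk4, under quantile normalization, the floor at the 40th percentile, the filter at the 75th percentile, trended variance and the replicate block, and 0 to 1 with 1 array left out. The 1 at 14 days became 0 with no filter, the replicate block, the Gapdh ratio, the muscle mean and only the 2 time points, and 0 to 1 with 1 array left out. The 6 between 3 days and 2 hours became 1 with no filter, 2 with either covariate, and 1 to 6. The replicate block, whose numbers share no more than a number, gave 148, 412, 317 and 256 genes in all in the 4 comparisons and 6, 1, 0 and 5 of the 10. The values of both covariates at 3 and 14 days lay apart from those at 0 hours, and those at 3 days narrowly apart from those at 2 hours. The muscle mean at 2 hours also lay apart from that at 0 hours. In those comparisons the fits cannot tell the covariate from time. Other causes of these shifts were not tested. Genes near the floor, such as Nr3c1 and Per2, could not be followed at this signal over background.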
